A study of Mus musculus with 24 samples.

Results

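RNA of the ependymal region, the cells lining the central canal of the spinal cord with their nearest neighbours, was compared between injured and sham-operated mice across all genes on the array. The series holds 24 arrays, and the 12 described here are all of its arrays of tissue, chosen by their titles: 6 of the ependymal region 3 days after injury and 6 of the ependymal region of control mice. All mice were adult, of the CD1 stock and 3 months old, and each array holds RNA of 1 mouse. The injured mice had a thoracic laminectomy and needle insertions into the cord beside the midline that spared the ependyma itself. The sham mice had the laminectomy alone, and in both groups the region was cut out with a laser. The mice were operated on under isoflurane anaesthesia, and no transgene is named for either group.

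Ependymal cells of the adult cord carry motile cilia that move the cerebrospinal fluid, divide rarely in the healthy animal, and enter division after a nearby lesion. In culture they grow as neurospheres and can give rise to astrocytes and oligodendrocytes, for which they are counted among the stem cells of the cord. The dissected ring also holds processes of neurons, neurons that touch the fluid, microglia and small vessels. Levels are log2 signals as measured by probe sets (several short probes against one transcript), so that a step of 1 is a 2-fold difference. In such bulk RNA, fewer cells of a type and less RNA per cell cannot be told apart.

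The 12 arrays fell into 3 sets of 4 by the spread of their signals, mouse numbers 1 and 2, 3 and 4, and 5 and 6, with 2 injured and 2 sham arrays in each. The sources used here do not say what the sets are. Set of arrays accounted for 95.5% of the first principal component, which held 47.0% of the variance, and injury for 90.4% of the third, which held 17.1%. The set therefore entered the fit as a block, so that injured arrays were compared with the sham arrays of their own set. Markers of the dissected tissue were present throughout: the mean log2 signal of 21 ependymal markers was 9.83 to 10.26 in injured arrays and 10.27 to 10.69 in sham arrays, with 3 of them called higher and 12 lower. Other tissues were also present. The mean of 30 skeletal muscle markers lay at 4.96 to 6.66 in injured and 5.07 to 7.68 in sham arrays, with 4 arrays above the rest (injured 6 and sham 3, 4 and 6). The mean of 21 neutrophil markers lay at 4.80 to 9.27 in injured and 4.97 to 9.55 in sham arrays, highest in injured 3 and 4 and sham 3, 4 and 6. None of the neutrophil list passed the test in either direction (limma, with 0 higher and 0 lower at an unadjusted p under 0.05), and 1 passed as higher with the 4 muscle-rich arrays left out. Leaving out these 4 muscle-rich arrays removes both sham arrays of set 2, so that the fit then rests on sets 1 and 3. The ratio of 3′ to 5′ signal of the Gapdh control probes, a sign of RNA integrity, was 1.12 to 2.47 on the log2 scale in injured arrays and 0.97 to 2.30 in sham arrays.

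Of 17097 genes, 2046 were called higher and 2238 lower after injury, which is 12% and 13.1% of those tested, or 25.1% in all (limma, p adjusted by Benjamini-Hochberg across 45037 probe sets and under 0.05). Of the probe sets themselves 3972 (8.82%) were higher and 4402 (9.77%) lower. Most changes were small. The median size of a called difference was 0.56 on the log2 scale, and 83.5% of the called genes changed by less than 2-fold. At 2-fold or more, 359 genes were higher and 349 lower (2.1% and 2.04% of all genes), and at 4-fold or more 75 were higher and 6 lower. Both injured arrays lay above both sham arrays within each of the 3 sets for 1676 genes, and below them for 1714. Over all 12 arrays at once the groups were apart for 493 genes above and 264 below. Calls rose with signal: among the 4275 dimmest genes 2.43% were higher and 1.54% lower, and among the 4274 brightest 19.2% and 23.7%. Without the block 497 genes (2.91%) were higher and 320 (1.87%) lower, and all 817 were also called with it. Of the 255 called genes described here, 96 did not pass without it. With the 4 muscle-rich arrays left out 10.4% of all genes were higher and 8.73% lower, and 20 of these genes did not pass: Amotl2, Arntl, Bag3, Clock, Cp, Eif5, Fdps, Heph, Hspe1, Hsph1, Kcnk1, Nfil3, Pfn2, Rorb, Srm, Tef, Traf1, Tubb4b, Vsnl1 and Zwint (adjusted p = 0.0506 to 0.369). With the injured and the sham arrays of a set averaged to 1 value each before the blocked fit, 736 genes were higher and 1078 lower, and 56 of the genes described did not pass (adjusted p up to 0.259): Amotl2, Arg1, Arntl, Atf5, Bop1, Camkv, Cd14, Chek1, Cks1b, Clock, Cp, Cry1, Ctsf, Dbp, Eif5, Fdps, Ftl1, Gbp3, Gstt1, H2-Ab1, H2-D1, H2-K1, Hadh, Hpgd, Hspe1, Kpna2, Lss, Met, Myh1, Nfe2l2, Nr1d2, Olig2, Pfn2, Pole, Psme1, Pycard, Rora, Rorb, Rpl32, Rpl7a, Rplp0, Rps26, Rpsa, Sod3, Spc25, Srm, Tead2, Tef, Tgfbi, Tmed10, Traf1, Tubb4b, Tubb5, Vgf, Wnt5a and Zwint.

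**Figure D1:**
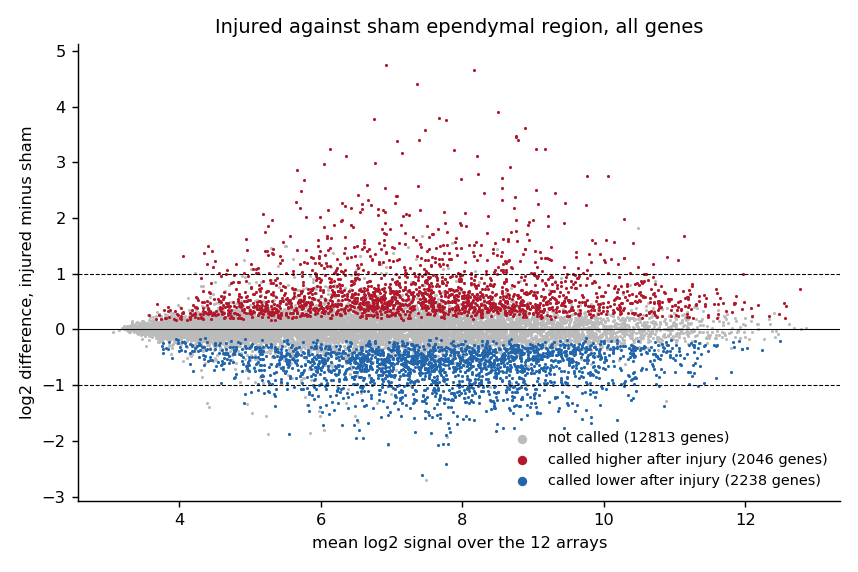
Log2 difference between injured and sham arrays (vertical axis) against the mean log2 signal over the 12 arrays (horizontal axis), with 1 point for each of 17097 genes, red where called higher after injury, blue where called lower and grey otherwise. The dashed lines mark a 2-fold difference, and rises of 4-fold or more (75 genes) outnumber such falls (6 genes).

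The largest rises included those of a galectin, a coat protein of membrane pits and an ion channel subunit. Lgals1, which encodes the sugar-binding protein galectin-1, was at 10.02 to 11.03 (median 10.48) in injured arrays, against 5.96 to 8.17 (median 6.97) in sham arrays. Its groups did not overlap, and the rise was 11-fold (log2 difference 3.46, SE 0.31, adjusted p = 4.8e-05). Cav1, the coat protein of membrane caveolae, was at 9.40 to 10.24 (median 9.64) in injured arrays, against 6.22 to 7.52 (median 6.52) in sham arrays, and rose 8.6-fold (log2 difference 3.10, SE 0.21, adjusted p = 7.5e-06), again without overlap. Kcnj8, a pore subunit of ATP-sensitive potassium channels and a marker of pericytes, was at 7.02 to 8.77 (median 7.69) in injured arrays, against 3.92 to 5.03 (median 4.68) in sham arrays (log2 difference 3.24, SE 0.24, adjusted p = 1.5e-05). These groups were apart as well, with the injured arrays spread over more than 1 log2 unit. Of 17 markers of pericytes and smooth muscle, Kcnj8 and Notch3 among them, 6 were higher and 0 lower (3 higher without the 4 muscle-rich arrays and 3 with arrays averaged), and the list mean was 5.94 to 6.52 in injured and 5.51 to 5.80 in sham arrays, without overlap. The part of these cells in the rises of Kcnj8, Notch3 and the actin genes was not tested. Other non-overlapping rises were those of the aryl hydrocarbon receptor Ahr (2.54), the neurotrophic secreted factor Ndnf (2.68), the LIM protein Lmcd1 (2.86) and the phosphatase inhibitor Ppp1r14b (2.78). All of these had an adjusted p of 4.9e-05 or less.

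Ranked by the moderated t, which weighs the difference by its error, the firmest rise was that of Fgl2, a secreted and membrane-bound fibrinogen-like protein of immune cells and vessels. Fgl2 was at 10.60 to 11.10 (median 10.76) in injured arrays, against 7.39 to 8.02 (median 7.44) in sham arrays, a gap of more than 2 log2 units between the groups (log2 difference 3.25, SE 0.09, adjusted p = 5.1e-08). Close behind it stood Tcim (log2 difference 2.70, SE 0.11, adjusted p = 4.5e-07), the kinase Nek6 (log2 difference 1.86, SE 0.07, adjusted p = 4.5e-07), protein S (Pros1, log2 difference 1.56, SE 0.07, adjusted p = 6.5e-07), alpha-2-macroglobulin (A2m, log2 difference 1.92, SE 0.09, adjusted p = 7.0e-07) and the sodium pump regulator Fxyd1 (log2 difference 1.48, SE 0.07, adjusted p = 7.1e-07). This rank favours genes with a like difference in the 3 sets, so that likeness between sets follows in part from the choice. Nek6 differed by 1.89, 1.69 and 2.0 in sets 1, 2 and 3, and A2m by 1.66, 2.07 and 2.03. Among the firmest falls were those of Ascc1, a subunit of an activator of transcription (log2 difference -1.70, SE 0.10, adjusted p = 3.6e-06), of the membrane protein Tmem182 (log2 difference -2.06, SE 0.14, adjusted p = 6.5e-06), of the cell adhesion molecule Cadm1 (log2 difference -0.87, SE 0.06, adjusted p = 6.4e-06) and of the polymerase I factor Taf1a (log2 difference -1.10, SE 0.07, adjusted p = 4.8e-06). Cadm1 was at 9.01 to 9.36 (median 9.25) in injured arrays, against 10.03 to 10.17 (median 10.07) in sham arrays, a narrow spread in both groups with no overlap.

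The falls reached less far than the rises. Amy1, an amylase, had the largest fall among called genes, with 3.59 to 7.79 (median 6.84) in injured arrays, against 7.40 to 9.73 (median 8.96) in sham arrays. The groups overlapped over all arrays and were apart within every set (log2 difference -2.61, SE 0.32, adjusted p = 3.1e-04), and the call was lost without the block (adjusted p = 0.0934). Myh1, a myosin of skeletal muscle, followed at -2.41, with -1.20, -5.45 and -0.60 in sets 1, 2 and 3. Its call was lost when any 1 of 8 of the arrays was left out (adjusted p 0.0515 to 0.0868) and with the mouse number as a block (0.0805), and the muscle list as a whole was highest in 3 sham arrays, whose part in this fall was not tested. Several of the other large falls were of neuronal genes: Snhg11 (-2.05), the calcium sensor Vsnl1 (-1.77), the synaptic organiser Cbln4 (-1.72), the RNA-binding protein Elavl4 (-1.60) and the glycine receptor subunit Glrb (-1.59). None of these 5 passed without the block. Falls of similar size were those of the transcription factor Myb (-1.95), the ankyrin repeat gene Ankrd44 (-1.77), the methyltransferase Bhmt (-1.60), and, among genes of ependymal cells, Ccdc153 (-1.95) and the chemotactic protein precursor Rarres2 (-1.87).

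The genes were then read in 91 lists. Against 12% and 13.1% over all genes, the share called higher was greatest for ribosomal proteins (75%), and the share called lower, apart from motile cilium genes, for neuron markers (72.7%). Lists that lay near the background in both directions or below it included 31 proteasome subunits (3 higher, 0 lower), 70 respiratory chain subunits (1 and 4), 46 DNA replication genes (2 and 4) and 48 splicing factors (2 and 3). Medians of lists are to be set beside that over all genes, which was 0.02. Counts of nearly every list were lower without the block, and those of many without set 1. Without the block and without set 1, 10 and 14 lysosomal genes were called higher of 21 in the full fit, 9 and 11 actin genes of 23, 5 and 9 genes of iron and metals of 17, 3 and 9 secretory genes of 17, and 8 and 10 BMP and TGF-beta genes of 19. The calls lower did the same, with 3 and 14 calcium genes of 22, 2 and 7 chromatin modifiers of 14, and 2 and 9 potassium channels of 14. The Notch list had 1 and 5 members higher of 10, and the Wnt list 4 and 11 of 13. With arrays averaged before the fit, the numbers called higher, each against that of the full fit, were 4 against 11 for translation factors, 6 against 17 for secretory genes, 11 against 21 for lysosomal genes, 7 against 17 for iron and metals, 7 against 27 for mitosis, 10 against 23 for macrophage markers and 11 against 19 for BMP and TGF-beta genes, and the numbers called lower were 27 against 32 for neuron markers, 4 against 11 for clock genes, 10 against 22 for calcium genes and 9 against 14 for chromatin modifiers.

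**Figure D2:**
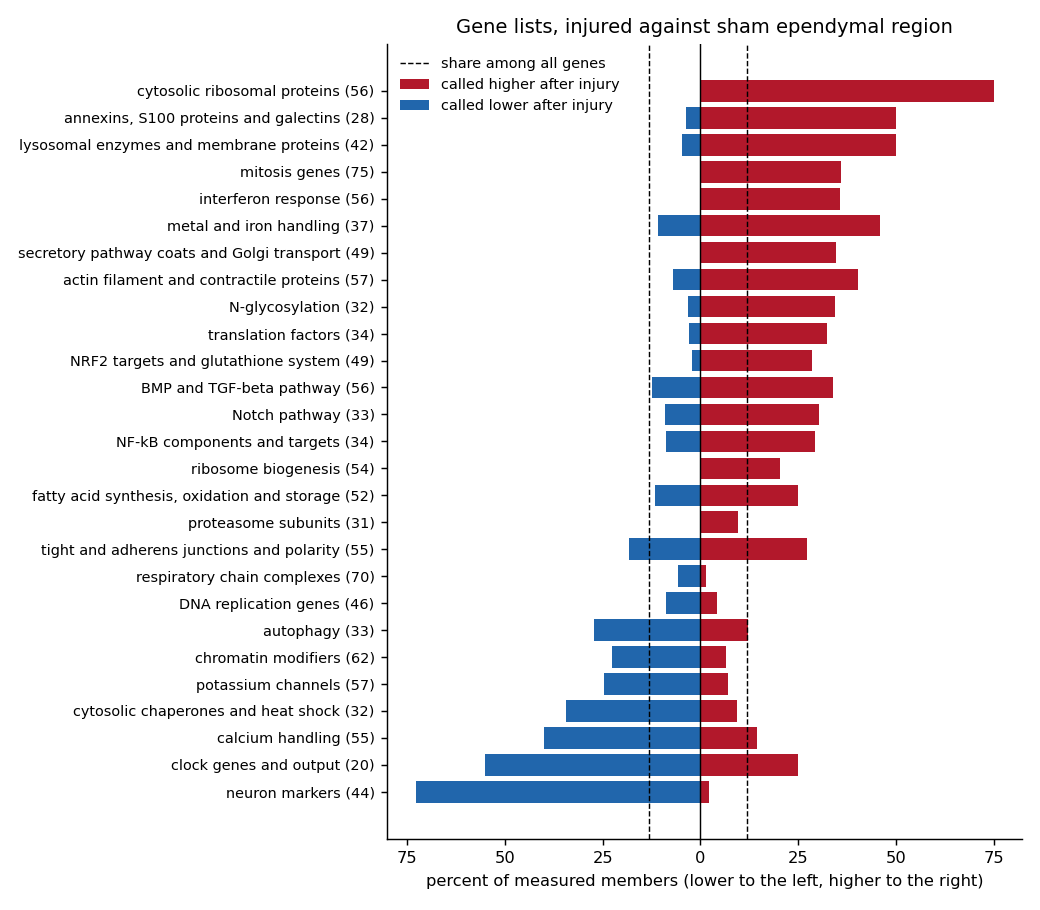
Percent of the measured members of 27 gene lists called higher (red, to the right) or lower (blue, to the left) after injury, with the number of members in brackets, and dashed lines at the shares among all genes, 12% and 13.1%. Ribosomal proteins stand at one end with 75% higher and neuron markers at the other with 72.7% lower.

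Proteins of the cytosolic ribosome, which carries out translation, had the highest share of members called higher. Of 56 measured, 42 were called higher and 0 lower, with a median difference of 0.47. Rpsa, a protein of the small subunit, was at 11.15 to 12.11 (median 11.71) in injured arrays, against 10.15 to 11.67 (median 10.65) in sham arrays (log2 difference 0.81, SE 0.12, adjusted p = 0.00101). Rps26, also of the small subunit, was at 10.28 to 11.41 (median 10.86) in injured arrays, against 9.22 to 11.15 (median 9.86) in sham arrays (log2 difference 0.84, SE 0.15, adjusted p = 0.00246). Both overlapped between groups over the 12 arrays and were apart within every set. The large-subunit proteins Rplp0 (0.73), Rpl32 (0.93, named after its value was seen) and Rpl7a (0.42) followed. The list's median was 0.45, 0.16 and 0.85 in sets 1, 2 and 3, and without the block 1 of its members passed. With arrays averaged before the blocked fit 0 of 56 passed (limma, with 39 higher and 0 lower at an unadjusted p under 0.05). Levels of these genes differed more between sets than between groups, and the list mean was 10.31 in both sham arrays of set 1 and 11.39 and 11.45 in those of set 2. Leaving out set 1 left 3 members called higher.

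Translation factors moved the same way. Of 34, 11 were higher and 1 lower. The helicase Eif4a1, which unwinds mRNA ahead of the small subunit, was at 8.54 to 10.93 (median 9.0) in injured arrays, against 7.48 to 10.30 (median 7.88) in sham arrays (log2 difference 0.97, SE 0.13, adjusted p = 4.7e-04). The elongation factor Eef2 (0.47) and the cap-binding inhibitor Eif4ebp1 (0.92) were also higher, whereas Eif5 was lower (-0.39). Of 54 genes of ribosome assembly 11 (20.4%) were higher and 0 lower, against 12% and 13.1% over all genes. The list mean was 6.87 to 7.38 in injured and 6.75 to 7.13 in sham arrays. Among all genes with a mean signal of 6.14 to 7.88, 16.8% were higher. Nhp2 (0.89) and Bop1 (0.62) were among the assembly genes that rose. With the 4 muscle-rich arrays left out, 47 ribosomal proteins, 9 translation factors and 10 assembly genes were called higher.

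Genes that carry proteins out of the cell rose as well. Of 49 genes of vesicle coats and Golgi transport 17 were higher and 0 lower. Sec61a1, the channel through which new proteins enter the endoplasmic reticulum, was at 10.68 to 11.08 (median 10.78) in injured arrays, against 9.89 to 10.16 (median 10.01) in sham arrays (log2 difference 0.82, SE 0.05, adjusted p = 4.8e-06). The groups did not overlap, and 3 of its 4 probe sets were called higher. The cargo receptors Tmed10 (0.42) and Tmed3 (0.73) and the retrieval receptor Kdelr2 (0.48) rose as well. Of 32 genes of N-glycosylation, the addition of sugar trees to new proteins, 11 were higher and 1 lower. Uggt1, which tests the folding of glycoproteins, was at 7.59 to 8.20 (median 7.87) in injured arrays, against 6.84 to 7.53 (median 7.14) in sham arrays (log2 difference 0.71, SE 0.07, adjusted p = 1.2e-04), and Dpagt1 (0.73), the first enzyme of the pathway, and Ddost (0.46), a subunit of the transferase, also rose. Chaperones and stress genes of the endoplasmic reticulum stood at 7 of 38 higher (18.4%) and 1 lower (2.63%), against 12% and 13.1% over all genes. These are bright genes, with a list mean of 8.49 to 8.91 in injured and 8.54 to 8.78 in sham arrays. Among the 4274 brightest of all genes 19.2% were higher, near the share of this list. Edem2 (0.78) and the disulphide isomerase P4hb (0.47) were among those higher.

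Lysosomal genes rose with little difference between sets. Of 42 measured, 21 were higher and 2 lower, the median was 0.35, and the medians in sets 1, 2 and 3 were 0.41, 0.38 and 0.35. Ctsa, a carboxypeptidase that also protects other lysosomal enzymes, was at 9.19 to 9.72 (median 9.35) in injured arrays, against 7.46 to 7.97 (median 7.75) in sham arrays, a 3.07-fold rise without overlap (log2 difference 1.62, SE 0.09, adjusted p = 2.6e-06). The protease cathepsin B (Ctsb) was at 11.32 to 12.05 (median 11.68) in injured arrays, against 10.08 to 10.83 (median 10.35) in sham arrays, likewise without overlap (log2 difference 1.24, SE 0.09, adjusted p = 9.7e-06). Ctsz (1.21), Ctsd (0.82) and the membrane protein Lamp2 (0.56) rose, and Ctsf fell (-0.61). Macrophage markers moved with this list, with 23 of 38 higher and a list mean of 7.14 to 7.97 in injured and 6.03 to 7.13 in sham arrays. Ctsb and Ctsd stand in both lists, and the part of those cells in the lysosomal rise was not tested.

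Autophagy genes, which deliver cell contents to the lysosome, fell more often than they rose. Of 33, 4 (12.1%) were higher and 9 (27.3%) lower, against 12% and 13.1% over all genes. These are bright genes, with a list mean of 7.65 to 8.21 in injured and 7.89 to 8.36 in sham arrays. Among the 4274 brightest of all genes, with a mean signal from 7.88 upwards, 23.7% were lower, near the share of this list. Without the block 0 autophagy genes were higher and 2 lower. Pink1, the kinase that marks damaged mitochondria, was at 10.17 to 10.83 (median 10.27) in injured arrays, against 11.05 to 11.43 (median 11.20) in sham arrays (log2 difference -0.85, SE 0.11, adjusted p = 4.7e-04). Fundc1, a receptor on the mitochondrial surface, was at 9.13 to 10.15 (median 9.67) in injured arrays, against 10.21 to 10.96 (median 10.62) in sham arrays (log2 difference -0.96, SE 0.11, adjusted p = 1.8e-04). Neither gene's groups overlapped. The membrane-anchored Gabarapl1 also fell (-0.52), and Atg5 rose (0.57).

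Cytosolic chaperones fell more often than they rose. Of 32 measured, 11 were lower and 3 higher, and 18 were not called, with a median of -0.23. The falls included genes of the ATP-driven machinery around HSP90 and HSP70. Hsp90aa1, the inducible HSP90, was at 10.81 to 11.70 (median 11.10) in injured arrays, against 11.89 to 12.17 (median 12.02) in sham arrays (log2 difference -0.87, SE 0.09, adjusted p = 8.5e-05). Its co-chaperones Ahsa1 (log2 difference -0.81, SE 0.12, adjusted p = 8.7e-04) and Stip1 (log2 difference -0.82, SE 0.14, adjusted p = 0.00228), the HSP70 protein Hspa2 (log2 difference -0.62, SE 0.05, adjusted p = 4.0e-05), the HSP70 partners Hsph1 (-0.44) and Dnaja1 (-0.66) and the mitochondrial co-chaperonin Hspe1 (-0.34, named after its value was seen, with an adjusted p of 0.0202, and 0.0566 with the mouse number as a block) were lower too. For Hsp90aa1, Ahsa1 and Hspa2 no injured array reached a sham array.

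The 3 chaperone genes that rose form or bind small heat shock proteins, which hold unfolded proteins without using ATP. Hspb1 was at 10.38 to 11.78 (median 11.15) in injured arrays, against 7.39 to 9.52 (median 8.19) in sham arrays, and all 4 of its probe sets were called higher (log2 difference 2.76, SE 0.21, adjusted p = 1.7e-05). Hspb8 was at 9.12 to 9.99 (median 9.66) in injured arrays, against 7.74 to 8.89 (median 8.0) in sham arrays (log2 difference 1.44, SE 0.15, adjusted p = 1.2e-04), and its partner Bag3, which links it to HSP70, changed by 0.62 (adjusted p = 0.0114). Without the 4 muscle-rich arrays 6 chaperone genes were called lower and 3 higher.

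A heat shock element stands before some genes of either direction. This element, to which HSF1 binds, was searched as GAANNTTC (the same on both strands) in RefSeq windows of 300 bases, 250 before to 50 after a gene's start (GRCm38.p6). It was found for 3 of the 3 genes that rose and for 4 of 10 matched of the 11 that fell, against 9.04% of 27025 genes with a window. A match describes the letters alone. The windows of Hspb1 (chr5:135887669-135887968, + strand), which rose, and of Hspe1 (chr1:55087898-55088197, + strand), which fell, are printed 5′ to 3′ with the element in capitals, to show that it stands before the start of both.
Hspb1: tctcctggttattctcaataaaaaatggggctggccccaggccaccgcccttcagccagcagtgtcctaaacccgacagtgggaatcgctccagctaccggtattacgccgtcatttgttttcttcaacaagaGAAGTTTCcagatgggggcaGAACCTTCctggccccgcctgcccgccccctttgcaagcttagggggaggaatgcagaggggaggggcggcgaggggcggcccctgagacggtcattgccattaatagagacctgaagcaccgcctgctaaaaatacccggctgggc
Hspe1: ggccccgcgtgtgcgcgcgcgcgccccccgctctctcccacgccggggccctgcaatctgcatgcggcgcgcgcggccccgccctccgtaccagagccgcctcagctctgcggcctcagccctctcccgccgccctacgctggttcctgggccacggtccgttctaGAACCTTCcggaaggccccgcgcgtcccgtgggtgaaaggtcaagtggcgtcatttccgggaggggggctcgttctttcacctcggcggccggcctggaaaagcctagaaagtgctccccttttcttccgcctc

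Clock genes were called often, in both directions. Of 20 measured, 11 were lower and 5 higher, and the median was -0.48, beside 0.02 over all genes. Without the block 2 were lower and 2 higher. Of the called genes named below, Cry2, Per2, Per3, Tef, Dbp, Arntl, Clock, Nr1d2, Nfil3 and Rora then did not pass (limma, adjusted p = 0.0816 to 0.920). The circadian clock is a loop in which CLOCK and ARNTL switch on Per and Cry genes, whose products switch CLOCK and ARNTL off, while PAR factors such as Dbp, Tef and Hlf pass the rhythm on to other genes. The sources used here do not state at what time of day tissue was taken.

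Both cryptochromes, the strongest repressors of the loop, fell. Cry1 was at 6.61 to 7.43 (median 6.80) in injured arrays, against 7.56 to 7.87 (median 7.69) in sham arrays (log2 difference -0.75, SE 0.12, adjusted p = 0.00175), without overlap. Cry2 was at 6.87 to 9.04 (median 7.93) in injured arrays, against 8.13 to 9.75 (median 9.08) in sham arrays (log2 difference -1.03, SE 0.11, adjusted p = 1.5e-04), with overlap over all arrays and none within a set. Per2 was at 4.34 to 6.25 (median 5.75) in injured arrays, against 5.59 to 7.13 (median 6.84) in sham arrays (log2 difference -1.02, SE 0.15, adjusted p = 9.3e-04), and Per3 fell by a similar amount (log2 difference -0.98, SE 0.15, adjusted p = 0.00101). Per1 lay between 7.24 and 7.81 in injured and between 7.85 and 9.03 in sham arrays, apart but with an adjusted p of 0.0564 and with sham 6 far above the other sham arrays.

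On the output side Hlf was at 6.47 to 7.10 (median 6.88) in injured arrays, against 7.34 to 8.15 (median 7.72) in sham arrays (log2 difference -0.93, SE 0.15, adjusted p = 0.00131) and Tef at 8.63 to 8.97 (median 8.83) in injured arrays, against 9.02 to 9.42 (median 9.18) in sham arrays (log2 difference -0.39, SE 0.06, adjusted p = 0.00198), both without overlap, although the other of the 2 probe sets of Tef was called higher. Dbp fell by more in sets 1 and 2 (-1.23 and -1.46) than in set 3 (-0.25). The activators Arntl (-0.64) and Clock (-0.63) and the repressor Nr1d2 (-0.48) were lower as well. The genes that rose included 2 repressors that act against the others: Bhlhe40, which competes with CLOCK for its sites, was at 9.09 to 9.69 (median 9.48) in injured arrays, against 8.60 to 8.96 (median 8.84) in sham arrays (log2 difference 0.61, SE 0.06, adjusted p = 1.2e-04), and Nfil3, which competes with the PAR factors, rose by 1.18 (SE 0.18, adjusted p = 9.6e-04). The nuclear receptor Rorb rose by 1.02 while its relative Rora changed by -0.49. Without the 4 muscle-rich arrays 8 clock genes were lower and 1 higher.

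**Figure D3:**
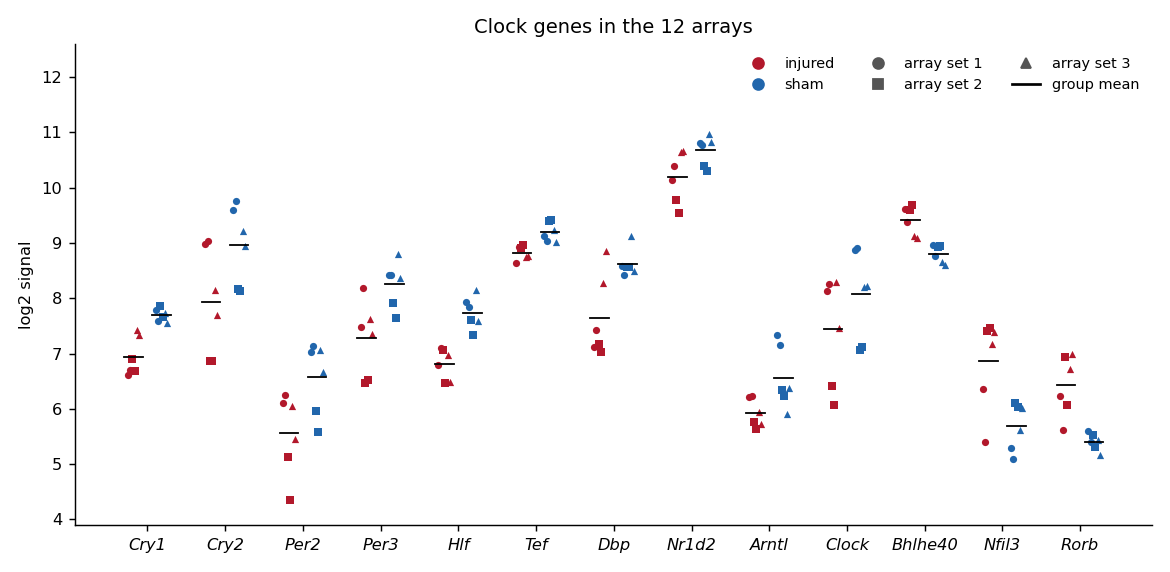
Log2 signal (vertical axis) of 13 clock genes in each injured (red, left) and sham (blue, right) array, with the symbol showing the set of arrays and the bar the mean of 6 arrays. In Cry1, Hlf and Tef every injured array lies below every sham array, and in Bhlhe40 and Rorb above them.

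Many genes of mitosis rose, and few of DNA replication passed in either direction. Of 75 mitosis genes 27 were higher and 0 lower, with a median of 0.54, whereas 2 of 46 replication genes were higher and 4 lower, with a median of 0.10. Ckap2, which stabilises spindle microtubules, was at 6.70 to 8.01 (median 7.59) in injured arrays, against 4.37 to 6.09 (median 5.25) in sham arrays (log2 difference 2.21, SE 0.27, adjusted p = 3.2e-04). Prc1, which bundles microtubules between the separating chromosomes, was at 7.76 to 9.10 (median 8.23) in injured arrays, against 5.69 to 7.31 (median 6.71) in sham arrays (log2 difference 1.66, SE 0.31, adjusted p = 0.00365). In both the groups were apart, as they were in the kinase Pbk (2.13), the cyclin-dependent kinase subunit Cks1b (1.77) and the kinetochore gene Spc25 (1.55, named after its value was seen). The replication polymerase subunit Pole rose by 0.67. The checkpoint kinases parted, with Chek1 higher (1.02) and Chek2 lower (-0.90).

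The size of the mitosis rise differed from set to set, with medians of 1.08, 0.13 and 0.59 in sets 1, 2 and 3. Leaving out set 1 left 3 mitosis genes called higher. Leaving out the 4 muscle-rich arrays raised the counts to 59 mitosis and 19 replication genes called higher. The list mean was 6.14 to 6.76 in injured and 5.08 to 6.32 in sham arrays. Of the arrays with the highest neutrophil marker means, injured 3 and 4 (8.64 and 9.27) had mitosis means of 6.31 and 6.16, and sham 3, 4 and 6 (9.35, 9.55 and 9.19) had 5.86, 6.25 and 6.32. Sham 1, 2 and 5, with neutrophil means of 4.97, 5.06 and 6.26, had lower mitosis means of 5.48, 5.46 and 5.08. Injured 1, 5 and 6, with neutrophil means of 6.14, 4.80 and 6.53, had mitosis means of 6.59, 6.14 and 6.69. The highest mitosis mean, 6.76, was that of injured 2, whose neutrophil mean was 5.08. The part of neutrophils in the mitosis levels was not tested.

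Among the called mitosis genes a pair of promoter elements was common. Of 27 such genes 23 had a RefSeq window, and 73.9% of these held TTTGAA, the cell cycle homology region that repressor and activator complexes of the MuvB type bind, against 20.2% of all genes with a window (the complement TTCAAA counted as well). The CCAAT box, bound by NF-Y (ATTGG on the other strand), was found in 82.6% against 41.1%. The genes were chosen by their rise, and the shares describe them only. The windows of Prc1 (chr7:80294201-80294500, + strand) and Cks1b (chr3:89418242-89418541, − strand) are shown with both elements in capitals, since a match of each stands shortly before the start in both genes.
Prc1: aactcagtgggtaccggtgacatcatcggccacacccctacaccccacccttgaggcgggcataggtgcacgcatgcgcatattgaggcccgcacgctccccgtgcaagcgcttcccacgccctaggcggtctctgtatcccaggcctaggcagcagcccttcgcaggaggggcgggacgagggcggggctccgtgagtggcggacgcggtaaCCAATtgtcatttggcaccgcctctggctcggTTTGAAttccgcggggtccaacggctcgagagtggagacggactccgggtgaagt
Cks1b: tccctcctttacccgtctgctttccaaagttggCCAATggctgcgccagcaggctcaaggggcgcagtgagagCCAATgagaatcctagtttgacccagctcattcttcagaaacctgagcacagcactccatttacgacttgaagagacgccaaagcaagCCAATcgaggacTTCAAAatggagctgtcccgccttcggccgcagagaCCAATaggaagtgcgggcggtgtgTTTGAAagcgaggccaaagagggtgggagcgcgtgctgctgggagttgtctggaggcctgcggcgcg

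Chromatin modifiers showed more falls than rises, 14 (22.6%) against 4 (6.45%) of 62, beside 13.1% lower and 12% higher over all genes. The list mean was 7.34 to 7.90 in injured and 7.60 to 8.01 in sham arrays. Among all genes with a mean signal of 6.14 to 7.88, 19.2% were lower, and among brighter ones 23.7%. The share lower in this list was thus near that of genes of similar signal. The histone deacetylase Hdac11 was at 6.92 to 8.78 (median 8.07) in injured arrays, against 8.64 to 9.50 (median 9.05) in sham arrays (log2 difference -1.13, SE 0.14, adjusted p = 3.2e-04), apart within each set. Hdac9 (log2 difference -1.15, SE 0.12, adjusted p = 1.2e-04) and the Polycomb protein Cbx7 (log2 difference -0.75, SE 0.12, adjusted p = 0.00148) fell as well. In nuclear transport, 7 of 36 genes (19.4%) were higher and 1 (2.78%) lower, against 12% and 13.1% over all genes. The list mean was 7.14 to 7.90 in injured and 7.22 to 7.85 in sham arrays. Among all genes with a mean signal of 6.14 to 7.88, 16.8% were higher, near the share of this list. The importin Kpna2 (0.76), which is most abundant in dividing cells, was among those higher.

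Interferon genes, which cells switch on against viruses and during inflammation, rose in part. Of 56 measured, 20 were higher and 0 lower, and 36 were not called. With arrays averaged before the fit 6 were higher, and with set 3 left out 1 was lower. Irf9, which carries the interferon signal to DNA, was at 7.38 to 8.32 (median 7.75) in injured arrays, against 5.58 to 6.67 (median 6.39) in sham arrays (log2 difference 1.46, SE 0.14, adjusted p = 6.8e-05). Gbp2, a GTPase that attacks intracellular microbes, was at 9.05 to 10.39 (median 9.32) in injured arrays, against 7.44 to 8.20 (median 7.83) in sham arrays (log2 difference 1.75, SE 0.21, adjusted p = 2.4e-04). Neither gene's groups overlapped. The receptor chain Ifnar2 (1.27), the membrane protein Ifitm2 (1.53) and Gbp3 (2.18, adjusted p = 0.00496, and 0.231 without the block) were higher as well. In antigen presentation by class I molecules 9 of 17 genes were higher, with H2-K1 at 10.52 to 10.85 (median 10.76) in injured arrays, against 9.03 to 10.11 (median 9.26) in sham arrays (log2 difference 1.27, SE 0.18, adjusted p = 6.9e-04), the proteasome activator Psme1 at a difference of 0.68 and the peptide-loading protein Tapbp at 0.49. Of 13 class II genes 3 were higher, among them H2-Ab1 (1.49).

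These rises were small in set 2. The interferon list's median was 0.74, 0.09 and 0.57 in sets 1, 2 and 3, and H2-D1 differed by 1.62, 0.05 and 1.69. Without the 4 muscle-rich arrays 36 of the interferon genes were called higher, and 6 were without set 1. A core of the interferon-stimulated response element, to which IRF factors bind (GAAA repeated after a spacer of 2 bases, on either strand), was found in the windows of 7 of 16 matched genes among the 20 that rose, or 43.8%, against 3.99% of all genes with a window. These genes were chosen by their list and by their rise, and the share describes them only. The windows of Gbp2 (chr3:142620413-142620712, + strand) and Gbp3 (chr3:142559794-142560093, + strand), neighbours of 1 family that both rose, are printed with this core in capitals. In Gbp3 a pair of matches overlaps.
Gbp2: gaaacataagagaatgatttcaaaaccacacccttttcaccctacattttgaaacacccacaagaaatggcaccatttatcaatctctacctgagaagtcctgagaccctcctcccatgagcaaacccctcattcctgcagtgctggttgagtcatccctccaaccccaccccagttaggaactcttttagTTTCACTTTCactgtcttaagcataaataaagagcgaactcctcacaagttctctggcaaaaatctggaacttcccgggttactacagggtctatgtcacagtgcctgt
Gbp3: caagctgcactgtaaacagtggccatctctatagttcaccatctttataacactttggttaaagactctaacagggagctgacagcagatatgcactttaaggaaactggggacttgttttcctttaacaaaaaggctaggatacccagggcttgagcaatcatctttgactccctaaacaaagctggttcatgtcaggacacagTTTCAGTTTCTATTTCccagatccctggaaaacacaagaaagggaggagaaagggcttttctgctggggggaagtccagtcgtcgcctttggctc

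Among inflammatory signals outside the interferon list, genes of NF-kB rose more often than they fell. Of 34 components and targets 10 were higher and 3 lower. Bcl3, a co-activator that binds NF-kB on DNA, was at 5.51 to 6.80 (median 6.36) in injured arrays, against 3.73 to 4.34 (median 4.2) in sham arrays (log2 difference 2.07, SE 0.20, adjusted p = 6.9e-05). The stress-induced Ier3 was at 7.01 to 8.60 (median 7.96) in injured arrays, against 5.22 to 6.23 (median 5.89) in sham arrays (log2 difference 2.14, SE 0.20, adjusted p = 4.8e-05), and Nfkbiz (2.04), Relb (0.63) and the adhesion molecule Icam1 (0.98) were higher too, whereas the adaptor Traf1 was lower (-0.95). Receptors of the tumour necrosis factor family changed in both directions: Tnfrsf1a, the main receptor for the factor, rose by 1.52 (adjusted p = 7.2e-06) and Tnfrsf12a, the receptor for TWEAK, by 2.16 (4.2e-05), and Tnfrsf19 fell (log2 difference -0.72, SE 0.12, adjusted p = 0.0021). All 3 were apart between the groups.

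Sensors of microbes and damage rose in part, with 7 of 30 higher and 0 lower, among them Myd88 (0.90), Cd14 (1.56) and the inflammasome adaptor Pycard (1.47). Of 37 interleukins and their receptors 7 were higher, or 18.9% against 12% over all genes. These included the alarm cytokine Il33 (log2 difference 1.47, SE 0.15, adjusted p = 8.6e-05) and the macrophage growth factor Csf1 (log2 difference 0.70, SE 0.11, adjusted p = 0.00151). Of the chemokine list, Ackr3, a scavenging receptor for CXCL12, was at 10.23 to 11.13 (median 10.60) in injured arrays, against 8.17 to 9.51 (median 9.29) in sham arrays (log2 difference 1.60, SE 0.14, adjusted p = 4.3e-05), Cxcl14 rose by 0.97, and Cx3cl1, by which neurons signal to microglia, fell (log2 difference -0.91, SE 0.12, adjusted p = 5.6e-04). Acute phase and complement proteins added the protease inhibitor Serpina3n (log2 difference 3.17, SE 0.14, adjusted p = 7.0e-07) and C4b (log2 difference 3.24, SE 0.18, adjusted p = 2.2e-06). Hpgd, which degrades prostaglandins, rose by 2.29.

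Genes of iron and metal handling rose more often than they fell. Of 37 genes 17 were higher and 4 lower. Trf, the iron carrier transferrin, was at 8.78 to 10.94 (median 9.92) in injured arrays, against 6.72 to 8.18 (median 7.72) in sham arrays (log2 difference 2.38, SE 0.20, adjusted p = 3.2e-05), without overlap. Its receptor Tfrc moved the other way, at 8.53 to 9.23 (median 8.72) in injured arrays, against 9.26 to 10.34 (median 9.69) in sham arrays (log2 difference -0.93, SE 0.14, adjusted p = 9.7e-04), also without overlap, although 1 of its 3 probe sets was called. Hfe, which binds that receptor, rose by 1.2 (adjusted p = 4.2e-04), and Aco1, which as an iron-free protein controls the mRNAs of Tfrc and ferritin, by 1.01 (9.2e-04).

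The metal reductase Steap4 was at 9.83 to 10.79 (median 10.02) in injured arrays, against 7.46 to 9.80 (median 7.94) in sham arrays (log2 difference 2.03, SE 0.33, adjusted p = 0.00163), and sham 6 lay just under the lowest injured array. The zinc importer Slc39a1 was at 9.35 to 10.08 (median 9.79) in injured arrays, against 8.05 to 8.69 (median 8.28) in sham arrays (log2 difference 1.42, SE 0.09, adjusted p = 4.9e-06), without overlap. The ferritin light chain Ftl1 (1.35, named after its value was seen) and ceruloplasmin (Cp, 1.18) rose, while the related oxidase Heph fell (-0.43). Trf is also a marker of oligodendrocytes, of whose 27 markers 5 (18.5%) were higher and 3 (11.1%) lower. Over all genes these shares were 12% and 13.1%.

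Of 49 genes of the glutathione system and targets of the oxidant sensor NRF2 14 were higher and 1 lower. Gpx7, a peroxidase of the endoplasmic reticulum, was at 6.40 to 8.49 (median 7.19) in injured arrays, against 5.38 to 5.78 (median 5.52) in sham arrays (log2 difference 1.84, SE 0.24, adjusted p = 4.6e-04), and its relative Gpx8 rose by 0.85. Neither overlapped between groups. The glutathione transferase Mgst1 (1.0), the thioredoxin reductase Txnrd1 (0.57), the secreted dismutase Sod3 (1.27) and the gene of NRF2 itself, Nfe2l2 (0.80, named after its value was seen), rose, and Gstt1 fell (-0.50). Of 30 genes of the integrated stress response 9 were higher and 2 lower, among them Cebpb (1.0), Atf5 (0.81) and the amino acid transporter chain Slc3a2 (0.73).

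Genes of the actin skeleton rose more often than they fell. Of 57 genes 23 were higher and 4 lower, against 9 higher without the block and 7 with arrays averaged before the fit. Msn (moesin), which ties actin to the membrane, was at 10.75 to 11.03 (median 10.93) in injured arrays, against 9.15 to 10.07 (median 9.58) in sham arrays (log2 difference 1.27, SE 0.10, adjusted p = 1.5e-05). Capg, which caps filament ends, was at 7.25 to 9.21 (median 8.29) in injured arrays, against 5.34 to 6.54 (median 5.87) in sham arrays (log2 difference 2.39, SE 0.22, adjusted p = 4.8e-05), and the scaffold Pdlim1 at 8.10 to 9.69 (median 8.68) in injured arrays, against 6.53 to 7.32 (median 6.73) in sham arrays (log2 difference 1.91, SE 0.18, adjusted p = 6.0e-05). None of the 3 overlapped between groups. Marcksl1 (1.34), the severing protein Cfl1 (0.45) and the tropomyosin Tpm4 (0.70) rose, whereas the non-muscle myosin Myh10 (-0.46) and the profilin Pfn2 (-0.34), both abundant in neurons, fell.

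Among tubulins Tubb6 was at 7.50 to 8.94 (median 7.78) in injured arrays, against 5.16 to 5.56 (median 5.29) in sham arrays (log2 difference 2.60, SE 0.20, adjusted p = 1.6e-05), Tubb5 rose by 0.66 and Tubb4b, a tubulin of ciliary axonemes, fell by 0.28.

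Proteins that bind calcium, membranes or sugars also rose, with 14 of 28 annexins, S100 proteins and galectins higher and 1 lower. S100a6 was at 9.65 to 11.16 (median 10.66) in injured arrays, against 4.79 to 9.30 (median 7.07) in sham arrays (log2 difference 3.40, SE 0.44, adjusted p = 4.0e-04), and its sham arrays spread over more than 4 log2 units. S100a10 (1.97), its binding partner Anxa2 (0.59), Anxa4 (1.24) and Lgals3 (1.56), a galectin of activated microglia, were higher too.

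Junction and polarity genes changed in opposite directions. Of 55 measured, 15 were higher and 10 lower. The rises included Cdh11, a cadherin of mesenchyme and glia, at 8.74 to 9.40 (median 9.35) in injured arrays, against 7.67 to 8.29 (median 7.85) in sham arrays (log2 difference 1.31, SE 0.13, adjusted p = 6.7e-05), and Cldn2, a claudin that lets cations and water pass, at 7.33 to 8.15 (median 7.65) in injured arrays, against 5.63 to 6.58 (median 5.93) in sham arrays (log2 difference 1.61, SE 0.16, adjusted p = 9.7e-05), both without overlap, and the scaffold Tjp1 (0.54). The falls were smaller, as in Marveld2, which seals corners between 3 cells (log2 difference -0.49, SE 0.08, adjusted p = 0.00192). With the muscle-rich arrays left out 7 were higher and 6 lower. Without the block 2 were higher and 0 lower, with arrays averaged before the fit 8 and 2, and without set 1 there were 11 and 3.

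Signalling pathways changed in part. Of 33 Notch genes 10 were higher and 3 lower. The receptor Notch1 was at 10.53 to 11.14 (median 10.86) in injured arrays, against 9.25 to 10.29 (median 9.94) in sham arrays (log2 difference 1.01, SE 0.11, adjusted p = 1.6e-04), without overlap. Notch3 rose (0.62), and the ligand Dll1 was at 6.41 to 7.64 (median 6.91) in injured arrays, against 7.53 to 8.38 (median 8.09) in sham arrays (log2 difference -1.09, SE 0.16, adjusted p = 7.9e-04). The target Hes1, a repressor that keeps progenitors from differentiating, fell by 0.42.

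Of 73 Wnt genes 13 (17.8%) were higher and 5 (6.85%) lower, against 12% and 13.1% over all genes. Lgr5, a receptor for R-spondins that marks stem cells of gut and skin, was at 8.44 to 9.26 (median 8.85) in injured arrays, against 7.10 to 7.57 (median 7.35) in sham arrays (log2 difference 1.51, SE 0.15, adjusted p = 9.8e-05). Celsr2, a cadherin of planar cell polarity that orients ependymal cilia, was at 9.04 to 10.20 (median 10.01) in injured arrays, against 7.97 to 8.96 (median 8.67) in sham arrays (log2 difference 1.29, SE 0.09, adjusted p = 9.0e-06). Both were apart between groups. The receptors Fzd8 (0.76) and Fzd2 (0.60) and the ligand Wnt5a (1.10) rose, and Nkd1, an inhibitor induced by the pathway itself, fell by 0.81. In the Hedgehog list Foxa1, a factor of the floor plate, was at 7.85 to 9.16 (median 8.48) in injured arrays, against 6.40 to 7.66 (median 7.20) in sham arrays (log2 difference 1.38, SE 0.14, adjusted p = 7.9e-05). Of the 24 Hedgehog genes 4 (16.7%) were higher and 1 (4.17%) lower, with the share higher likewise near that over all genes.

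Of 56 genes of the BMP and TGF-beta pathways 19 were higher and 7 lower. The rises included secreted proteins that store, cleave or bind the ligands: Bmp1, a protease that matures collagen and frees BMPs, at 8.04 to 8.83 (median 8.52) in injured arrays, against 6.93 to 7.43 (median 7.22) in sham arrays (log2 difference 1.27, SE 0.11, adjusted p = 3.8e-05), Ltbp1, which holds latent TGF-beta in the matrix (log2 difference 1.19, SE 0.18, adjusted p = 0.00101), and the follistatin-like Fstl1 (log2 difference 1.27, SE 0.15, adjusted p = 2.6e-04). Tgfbi, a matrix protein induced by TGF-beta, was at 8.16 to 9.37 (median 8.62) in injured arrays, against 4.86 to 7.36 (median 6.03) in sham arrays (log2 difference 2.57, SE 0.47, adjusted p = 0.00333), with 4.27, 1.38 and 2.07 in sets 1, 2 and 3. Tgfb3 (0.78, named after its value was seen) and the transducer Smad1 (0.86) rose, and the inhibitor Smad6 fell by 0.45. In the YAP and TEAD list 7 of 29 were higher and 4 lower, with Tead2 higher (0.56) and Amotl2 lower (-0.99).

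Growth factors and their receptors showed 16 rises (21.3%) and 10 falls (13.3%) among 75, against 12% and 13.1% over all genes. Fgfrl1, an FGF receptor without a kinase, was at 9.82 to 10.62 (median 10.38) in injured arrays, against 7.40 to 8.48 (median 7.54) in sham arrays (log2 difference 2.50, SE 0.16, adjusted p = 6.5e-06), and stood apart without overlap. Hbegf, a ligand of the EGF receptor, rose by 0.89, and Met, the receptor for hepatocyte growth factor, by 1.97 (adjusted p = 0.00378, and 0.0827 without the block). A ligand and its receptor moved in opposite directions in the stem cell factor pair, with Kitl higher (log2 difference 0.63, SE 0.09, adjusted p = 5.9e-04) and Kit at 6.46 to 8.24 (median 6.80) in injured arrays, against 7.45 to 9.35 (median 8.28) in sham arrays (log2 difference -1.32, SE 0.11, adjusted p = 3.2e-05). Gas6, a ligand of the TAM receptors that clear dying cells, was at 8.57 to 9.24 (median 9.08) in injured arrays, against 9.80 to 10.12 (median 9.95) in sham arrays (log2 difference -0.97, SE 0.09, adjusted p = 6.9e-05), while the related ligand protein S rose, as given above.

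Among 66 guidance genes 14 (21.2%) were higher and 11 (16.7%) lower. Without the block 3 were higher and 1 lower, with arrays averaged before the fit 6 and 5, and without set 1 there were 8 and 2. Sema3b was at 6.24 to 7.91 (median 7.25) in injured arrays, against 4.72 to 5.88 (median 5.34) in sham arrays (log2 difference 1.86, SE 0.15, adjusted p = 2.0e-05), and the floor plate attractant Ntn1 at 9.60 to 10.16 (median 9.76) in injured arrays, against 7.89 to 8.87 (median 8.40) in sham arrays (log2 difference 1.39, SE 0.13, adjusted p = 5.4e-05). Neither overlapped between groups. Its receptor Dcc fell by 1.12. The ephrins parted, with Efnb3 higher (log2 difference 1.06, SE 0.13, adjusted p = 2.7e-04) and Efnb2 lower (log2 difference -0.85, SE 0.09, adjusted p = 1.1e-04).

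Genes of fat metabolism rose more often than they fell. Of 52 genes 13 were higher and 6 lower. Fabp7, a fatty acid carrier of radial glia, was at 11.65 to 12.10 (median 12.06) in injured arrays, against 9.79 to 10.74 (median 10.26) in sham arrays (log2 difference 1.68, SE 0.09, adjusted p = 1.8e-06), without overlap. Cpt1a, which passes fatty acids to mitochondria for oxidation, was at 8.46 to 9.08 (median 8.87) in injured arrays, against 7.47 to 8.17 (median 7.87) in sham arrays (log2 difference 1.0, SE 0.11, adjusted p = 1.8e-04). Acadl (1.45) and Hadh (0.55) of the oxidation cycle, the droplet coat Plin3 (0.94) and the elongase Elovl1 (1.67) rose. The elongase Elovl4 (log2 difference -1.07, SE 0.08, adjusted p = 1.3e-05), the acyl-CoA synthetase Acsl3 (log2 difference -0.93, SE 0.10, adjusted p = 1.6e-04), which activates fatty acids, and the desaturase Fads1 (log2 difference -0.59, SE 0.06, adjusted p = 6.9e-05) fell.

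In the full fit, cholesterol genes of synthesis fell more often than they rose, and those of efflux rose more often than they fell. Of 22 genes of synthesis and uptake 5 were lower and 1 higher, including falls of Lss (-0.97) and Fdps (-0.39). The list mean was 6.66 to 7.44 in injured and 6.99 to 7.72 in sham arrays. The share lower was 22.7%, against 13.1% over all genes and 19.2% over those with a mean signal of 6.14 to 7.88. It fell to 0 genes without the block and with arrays averaged before the fit, and to 1 gene without set 1. The list's median was -0.26, -0.09 and 0.08 in sets 1, 2 and 3. Of 20 genes of efflux and lipoproteins 6 (30%) were higher and 1 lower, with 2 higher without the block and 4 with arrays averaged. Ch25h, which makes an oxysterol that shuts down cholesterol synthesis and attracts immune cells, was at 5.86 to 8.12 (median 6.73) in injured arrays, against 4.25 to 5.15 (median 4.53) in sham arrays (log2 difference 2.18, SE 0.21, adjusted p = 6.8e-05), without overlap. Lrp1 (0.68) and the lysosomal cholesterol carrier Npc2 (0.79) rose. Ch25h is also on the macrophage list.

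Of 36 genes of sugar metabolism 5 (13.9%) were higher and 7 (19.4%) lower, near the 12% and 13.1% over all genes. Pfkfb3, which drives glycolysis, was at 6.0 to 7.52 (median 6.95) in injured arrays, against 4.71 to 6.03 (median 5.38) in sham arrays (log2 difference 1.47, SE 0.17, adjusted p = 2.4e-04), and Ldha, which makes lactate, at 10.81 to 11.21 (median 10.91) in injured arrays, against 9.89 to 10.73 (median 10.06) in sham arrays (log2 difference 0.83, SE 0.12, adjusted p = 7.6e-04). The glucose transporter Slc2a1, most abundant in vessels, was at 10.12 to 11.07 (median 10.32) in injured arrays, against 10.86 to 11.60 (median 11.18) in sham arrays (log2 difference -0.77, SE 0.07, adjusted p = 6.7e-05), and the neuronal enolase Eno2 fell by 1.22. The polyamine enzyme Srm (0.79) and the arginase Arg1 (1.5), which is also on the macrophage list, rose, and Cbs (log2 difference -0.89, SE 0.11, adjusted p = 3.0e-04) and the mitochondrial folate enzyme Mthfd1l (log2 difference -1.12, SE 0.10, adjusted p = 4.7e-05) fell.

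Respiratory chain genes had a median near 0 over all sets and others within sets. Only 1 of 70 passed as higher and 4 as lower, and the median was -0.08, -0.21 and 0.40 in sets 1, 2 and 3. Genes of the mitochondrial ribosome varied alike, with medians of 0.11, -0.06 and 0.49. By contrast the neuron list's median was -0.77, -0.81 and -0.84.

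**Figure D4:**
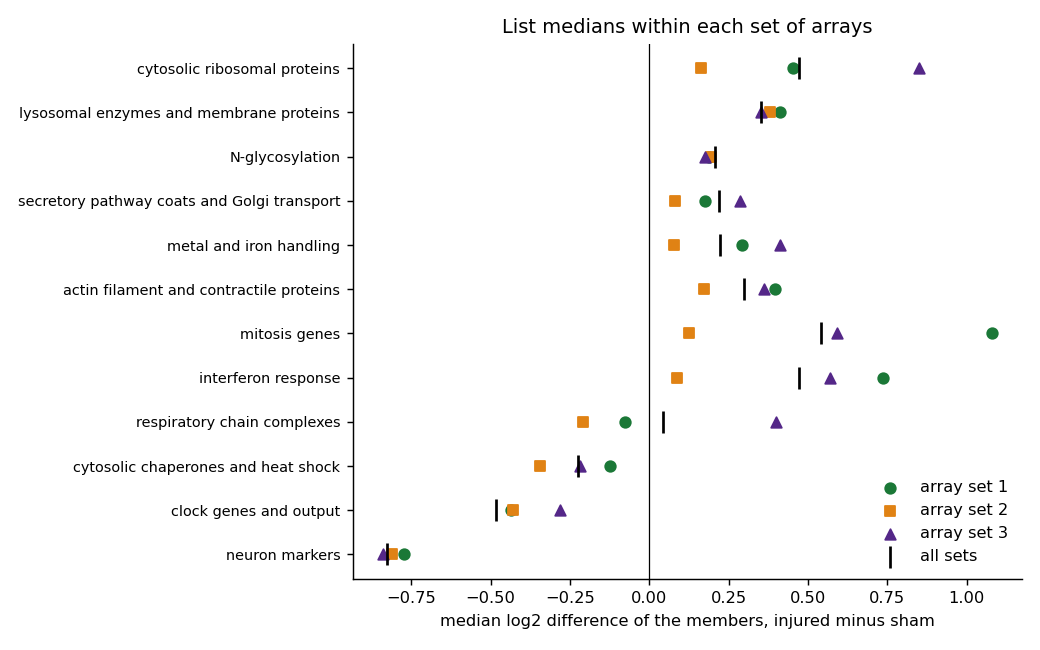
Median log2 difference, injured minus sham, of the members of 12 lists within array set 1 (circles), 2 (squares) and 3 (triangles), with a black bar for the fit over all sets. Lysosomal genes and neuron markers lie close together across sets, and ribosomal, mitosis, interferon and respiratory chain genes lie apart.

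Neuronal genes fell more widely than any other list apart from those of motile cilia, of which 43 of 50 were lower. Of 44 neuron markers 32 were lower and 1 higher, with a median of -0.83. Syt1, the calcium sensor of synaptic vesicles, was at 7.45 to 9.06 (median 7.71) in injured arrays, against 8.81 to 9.91 (median 9.39) in sham arrays (log2 difference -1.41, SE 0.13, adjusted p = 5.5e-05). Snap25, of the machinery that fuses them, was at 8.99 to 11.05 (median 9.39) in injured arrays, against 10.43 to 11.83 (median 10.85) in sham arrays (log2 difference -1.26, SE 0.15, adjusted p = 2.3e-04). In both genes the groups overlapped over all arrays and were apart within each set. Gad2 (-1.32), which makes GABA, and the glycine transporter Slc6a5 (-1.26) fell, and the secreted peptide precursor Vgf rose (1.22). A dimmer probe set of Slc6a5 was called higher (0.175). Without the block 3 of the list passed as lower, and the list mean, 6.80 to 8.69 in injured and 7.72 to 9.26 in sham arrays, was highest in set 1 in both groups.

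Neurons that contact the cerebrospinal fluid sit in the ependyma itself. Of 15 of their markers 8 were lower and 1 higher. Their channel Pkd2l1 was at 9.21 to 10.56 (median 9.64) in injured arrays, against 10.58 to 11.31 (median 10.89) in sham arrays (log2 difference -1.18, SE 0.09, adjusted p = 1.5e-05), and the transcription factor Tal1 at 6.51 to 7.37 (median 6.70) in injured arrays, against 7.82 to 8.47 (median 8.16) in sham arrays (log2 difference -1.32, SE 0.15, adjusted p = 2.2e-04), both without overlap. Gata3 fell by 0.90, and Sstr2 rose by 0.79.

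Genes of ion channels and calcium handling fell more often than they rose. Of 55 calcium handling genes 22 were lower and 8 higher, among them the buffer Calb1 at 4.95 to 7.20 (median 6.14) in injured arrays, against 6.83 to 8.18 (median 7.64) in sham arrays (log2 difference -1.58, SE 0.23, adjusted p = 7.6e-04), the Golgi pump Atp2c1 (-1.07), the kinase Camk2b (-0.88) and the protease Capn3 (log2 difference -0.64, SE 0.06, adjusted p = 7.0e-05). The calcium release channel Itpr2, the form found in astrocytes, was at 8.65 to 9.36 (median 8.97) in injured arrays, against 6.66 to 7.56 (median 7.19) in sham arrays (log2 difference 1.85, SE 0.11, adjusted p = 4.8e-06), a rise without overlap. Of 57 potassium channel genes 14 were lower and 4 higher. Kcnd3 (-1.04) and its subunit Kcnip4 (-0.92), Kcnk2 (-1.32) and Kcnk1 (-0.68, named after its value was seen) fell. Among pumps and bicarbonate carriers Slc4a10 was at 6.27 to 8.53 (median 6.97) in injured arrays, against 7.97 to 9.29 (median 8.45) in sham arrays (log2 difference -1.49, SE 0.22, adjusted p = 9.2e-04), and the beta subunits of the sodium pump parted, the glial Atp1b2 higher (0.60) and the neuronal Atp1b1 lower (-0.86).

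Markers of other cells moved with the groups to different degrees. Of 38 markers of macrophages and activated microglia 23 were higher and 0 lower, with the scavenger receptor Msr1 at 7.10 to 9.57 (median 8.01) in injured arrays, against 5.41 to 6.33 (median 5.91) in sham arrays (log2 difference 2.27, SE 0.23, adjusted p = 8.1e-05) and Ms4a6d higher by 2.48. Of 23 markers of resting microglia 8 were higher and 1 lower. Fcrls was at 7.11 to 8.25 (median 7.79) in injured arrays, against 4.88 to 5.68 (median 5.30) in sham arrays (log2 difference 2.40, SE 0.13, adjusted p = 1.8e-06) and Aif1 rose (log2 difference 0.84, SE 0.09, adjusted p = 1.7e-04), but the purine receptor P2ry12, which marks microglia at rest, was at 3.87 to 5.47 (median 4.54) in injured arrays, against 5.25 to 6.27 (median 5.86) in sham arrays (log2 difference -1.12, SE 0.16, adjusted p = 8.7e-04), and another purine receptor, P2ry6, rose (log2 difference 1.09, SE 0.13, adjusted p = 2.2e-04).

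Of 16 markers of oligodendrocyte precursors 8 were higher and 1 lower. Olig1 was at 9.27 to 10.34 (median 9.83) in injured arrays, against 6.87 to 8.82 (median 7.31) in sham arrays (log2 difference 2.18, SE 0.18, adjusted p = 3.0e-05), without overlap, and Olig2, a dim gene here, rose by 0.85. Of 30 endothelial markers 5 (16.7%) were higher and 3 (10%) lower, against 12% and 13.1% over all genes. The lipid transporter Mfsd2a was at 7.15 to 7.96 (median 7.69) in injured arrays, against 4.98 to 6.04 (median 5.45) in sham arrays (log2 difference 2.10, SE 0.15, adjusted p = 1.1e-05). The 23 lymphocyte markers had a list mean of 4.21 to 4.94 in injured and 4.33 to 4.96 in sham arrays, and 0 of them passed in either direction (limma, with 0 higher and 1 lower at an unadjusted p under 0.05, and 1 lower with set 1 left out). The part of these cells in the lists above was not tested.

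**Figure D5:**
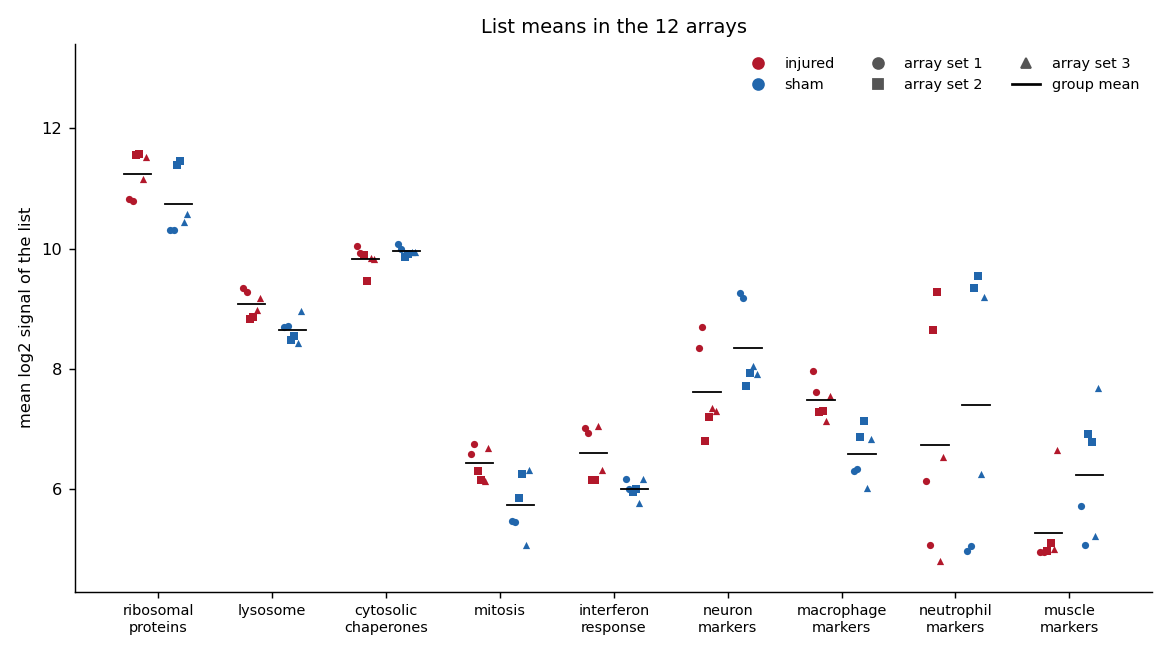
Mean log2 signal of 9 gene lists (vertical axis) in each injured (red, left) and sham (blue, right) array, with the symbol showing the set of arrays and the bar the mean of 6 arrays. Neutrophil, muscle and neuron markers spread by more than 1 log2 unit within each group, and lysosomal, macrophage and neuron lists shift between groups within each set.

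Some genes gave different answers from different probe sets. Of 1131 genes with more than 1 called probe set, 73 (6.45%) had calls in both directions. Dclk1, a microtubule-binding kinase with long and short transcripts, had the widest spread: 4 probe sets rose by 2.15, 2.23, 2.45 and 2.63, and 2 fell by 0.86 and 0.62 on the log2 scale, with 2 more not called. Cald1, an actin-binding protein, fell by 0.77 on its brightest probe set and rose by 0.95 on another (adjusted p = 5.19e-06 and 0.00199). In Zwint, a kinetochore gene that is also abundant in neurons, the brightest probe set fell by 0.63 and a dimmer one rose by 1.06. Syngr1, Spout1 and Kazn likewise fell on their brightest probe set, by 0.70, 1.21 and 0.86, and rose on another, by 0.95, 0.36 and 0.56. Which transcripts these probe sets report on was not analysed here. Among 16139 probe sets that name no gene or several, 870 were called higher and 1112 lower, or 5.39% and 6.89%.

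The effect of injury was also tested for a difference between the 3 sets. None of 45037 probe sets passed at an adjusted p under 0.05 (limma, smallest adjusted p = 0.0712), while 5135, or 11.4%, had an unadjusted p under 0.05, and with limma's trend and robust options 20 passed. Among the genes with the smallest p, Cela1, an elastase-like protease, rose in every set, by 2.18, 1.42 and 3.37 in sets 1, 2 and 3 (unadjusted p = 1.6e-05). Camkv, a kinase-like protein of synapses, differed by -0.95, -0.10 and -1.11 (2.3e-05). Cryl1, a sugar acid dehydrogenase, was not called on its brightest probe set (log2 difference -1.0, SE 0.69, adjusted p = 0.398), which differed by 0.97, 0.09 and -4.04 (1.7e-05). Of its 4 probe sets, 2 others were called higher and 0 lower.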

How the data were processed

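RNA of laser-dissected ependymal region was hybridised by the authors to Affymetrix mouse arrays, 1 mouse per array, and the deposited log2 signals were made with RMA in Affymetrix Expression Console 1.2.1, per the labels and the study's methods. RMA subtracts background, quantile-normalises arrays and summarises probes, so that small differences at low signal are compressed. The deposited signals did not share a common distribution across the sets of arrays. The median signal was 5.34 to 5.36 in set 1, 4.97 to 5.03 in set 2 and 4.85 to 4.89 in set 3. Ranges over all arrays include these differences between sets. Whether the sets were normalised apart was not tested. The value table of the neurosphere arrays was not used.

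From the deposited table, 45037 probe sets (104 control sets left out) were fitted with limma 3.58.1 in R 4.3.3 (lmFit, eBayes, two-sided, Benjamini-Hochberg over all probe sets, threshold 0.05), with injury and the set of arrays as terms. The 3 sets were recognised from the arrays' signal distributions. Mouse numbers are shared between the groups: deviations of same-numbered arrays from their group means correlated at 0.42 to 0.79, and at −0.10 to 0.20 once set means were also taken out, so that the set was the block and the mouse number an alternative. Of 28898 probe sets naming 1 gene in GEO's platform annotation, 28689 matched RefSeq (GRCm38.p6) by gene ID. A gene was read from its brightest probe set, chosen by the mean over all arrays. List counts use genes measured. The p-values of the blocked fit measure spread between mice within a set, pooled with differences of the injury effect between sets. Spread between sets is taken out by the block, and the number of arrays limits the precision. The script was tested on simulated data.

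The comparison, the lists and the markers were chosen with earlier results of these data known. Genes could be named if among the 40 largest called changes or the 10 largest moderated t in each direction, among the 8 members of a list with the smallest p called in a direction (3 where fewer were called), in a list of up to 35 genes, among the 15 smallest interaction p, or among genes losing their call without the block or with opposite probe sets. Those described were picked from these after their values were seen, and Ftl1, Hspe1, Kcnk1, Nfe2l2, Rpl32, Spc25 and Tgfb3 fall outside the rule. The promoter elements were chosen after the values were seen. Alternatives were no block, the mouse number as a block, other scalings, a filter on dim probe sets, other moderation, array weights, averaged arrays, arrays or sets left out, and the mean of a gene's probe sets.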

Additional observations from a re-analysis of the deposited data

Results flagged for a closer look

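In 24 of 514 groups of 6 arrays (4.67%), 1 array lay far from the other 5 by Dixon's criterion, and chance gives about 1 in 20. Of these, 9 were in sham 6, 4 each in sham 5, injured 2 and injured 6, 2 in injured 5 and 1 in injured 4. Sham 6 had the highest muscle mean of the sham arrays (7.68). It was also among the sham arrays highest for neutrophil markers (9.19) and erythroid markers (8.07).

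Sham 6 was the highest sham array for Cd14 (6.83, the others at most 6.10), Chek1 (6.58, at most 5.63), Ctsz (9.99, at most 9.39), Fgl2 (8.02, at most 7.59), Hpgd (5.70, at most 4.46), Ldha (10.73, at most 10.17), Per1 (9.03, at most 8.03) and Steap4 (9.80, at most 8.22). It was the lowest for the ependymal gene Ccdc153 (10.48, the others at least 10.94). In the genes called higher (Cd14, Chek1, Ctsz, Fgl2, Hpgd, Ldha and Steap4) this array lay nearer to the injured arrays than the other sham arrays did. Sham 5 was far below the other sham arrays for Bcl3 (3.73), Cfl1 (10.81) and Kcnk1 (8.82), and above them for Dbp (9.13).

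Among injured arrays, number 2 was low for Mgst1 (10.49), Myd88 (6.88) and Tpm4 (10.27) and high for Cbs (6.24). Injured 6 was high for Ftl1 (11.26), Slc3a2 (9.22), Sod3 (8.97) and Tubb6 (8.94). Injured 5 was high for Pink1 (10.83) and Tfrc (9.23), both lower after injury, and injured 4 was low for Bag3 (9.11). No cause of these values was tested.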

How the results depend on the processing

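Without the block 497 genes were higher and 320 lower, 860 probe sets were higher and 540 lower, and 157 genes were lower by 2-fold. With the mouse number as a replicate block the counts were 1655 and 1951 genes, 3146 and 3752 probe sets, and 357 and 350 genes at 2-fold, and Hspe1 and Myh1 were the only genes described whose call it changed. With arrays averaged by group and set before the fit, 736 and 1078 genes and 1363 and 1952 probe sets passed, and 56 of the genes described lost their call. Leaving out set 1 left 1057 and 1110 genes and 1943 and 2058 probe sets. The count lower was 1470 genes without set 2, and 2642 probe sets were higher without set 3. Within set 1 alone 1235 and 1132 genes and 2202 and 2111 probe sets passed, within set 2 alone 420 and 802 genes, 776 and 1432 probe sets and 237 genes higher by 2-fold, and within set 3 alone 57 and 10 genes, the same numbers at 2-fold, and 101 and 21 probe sets. These fits rest on fewer arrays. Without the 4 muscle-rich arrays 552 genes were higher by 2-fold, and with a gene's probe sets averaged 229 were lower by 2-fold. The test of a difference between sets gave 20 probe sets with trend and robust moderation. Leaving out 1 array gave 1618 to 1988 genes higher and 1798 to 2313 lower, 320 to 399 and 314 to 405 at 2-fold, and 3090 to 3830 and 3463 to 4445 probe sets. All other counts over genes and probe sets stayed within 1.5 times.

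Of the 255 called genes described, 253 kept their direction under every alternative. With probe sets averaged Syngr1 changed by 0.0923 and Zwint by 0.0600. Cryl1, not called on its brightest probe set, there changed by 0.53 without set 3, 0.97 within set 1 and 0.0896 within set 2. The cause was not tested. Dim genes were rarely called, and a change there may not be detectable at this signal.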
